A study of Homo sapiens with 2 samples.

Results

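The genes described here are 10 members of the NF-kB system: the 5 transcription factor subunits NFKB1, NFKB2, RELA, RELB and REL, and 5 genes that NF-kB induces or that restrain it, NFKBIA, NFKBIZ, TNFAIP3, BIRC3 and ICAM1. They were chosen by name, and every probe set annotated to only 1 of them was taken. Of the 10 genes, 9 had such a probe set, out of 19775 genes named on the array, with 21 probe sets among the 54675 of the table. BIRC3 had no probe set in the annotation used and was not analysed here. Messenger RNA was measured in Huh-7 cells, a human hepatoma line, with 1 culture exposed for 6 hours to recombinant interferon-alpha 2b at 100 U/mL and 1 untreated culture of the same line whose medium was exchanged, with 1 Affymetrix expression array each. The harvest time of the untreated culture is not given in the sources used here. With 1 array per condition the differences are without replicates, so none was tested and the text holds no p-values. Precision is limited by the number of arrays.

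NF-kB is a family of dimers of Rel-type subunits that are held inactive in the cytoplasm by IkB proteins. Signals from tumour necrosis factor, interleukin-1 or Toll-like receptors activate the IkB kinases, the IkB protein is degraded, and the dimers enter the nucleus and bind kappaB sites. Among the genes they switch on are their own inhibitors, which makes the response self-limiting. In hepatocytes the pathway is known for acute-phase and chemokine genes and for protection from cell death. Interferon-alpha itself signals mainly through JAK kinases and the STAT factors, by another route.

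NFKBIZ and TNFAIP3 were the members with the largest differences, and both were under 1.5-fold. NFKBIZ was 1.39-fold and TNFAIP3 1.29-fold higher with interferon. The 5 subunits, NFKBIA and ICAM1 lay between -0.04 and 0.18 on the log2 scale, inside the range that holds the central 95% of genes bright enough to be measured. None of the 9 members differed by 1.5-fold, with 0 higher and 0 lower. Among all 13269 genes counted, those above the floor described next on 1 array or more, the share past 1.5-fold was 0.754% on the higher side and 0.0829% on the lower, so a count of 0 among 9 is what the background share gives.

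Ratios are the intensity on the interferon array over that on the untreated array, and values below a floor of 48.46, the median of all values on both arrays, were raised to the floor first. A gene is represented by whichever of its probe sets was brightest over both arrays, by mean log2 intensity. A probe set or gene above the floor on the 2 arrays alike is called measured, and one under it on the 2 arrays alike is called dim. All 9 members were measured, the dimmest at 2.15 times the floor on the untreated array. Of their 21 probe sets, 17 were measured and 4 were dim. Over the 12742 measured genes the log2 ratio had its median at 0.04 and its central 95% from -0.29 to 0.30. This spread is across genes within 1 pair of arrays and is not a replicate error. A second yardstick is how far the log2 ratios of 1 gene's own probe sets lie apart, with a median range of 0.14 over the 5912 genes in which more than 1 probe set was measured. Probe sets of 1 gene read the same RNA on the same 2 arrays. Their closeness is therefore not a replicate error either and says nothing on variation between cultures.

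**Figure D1:**
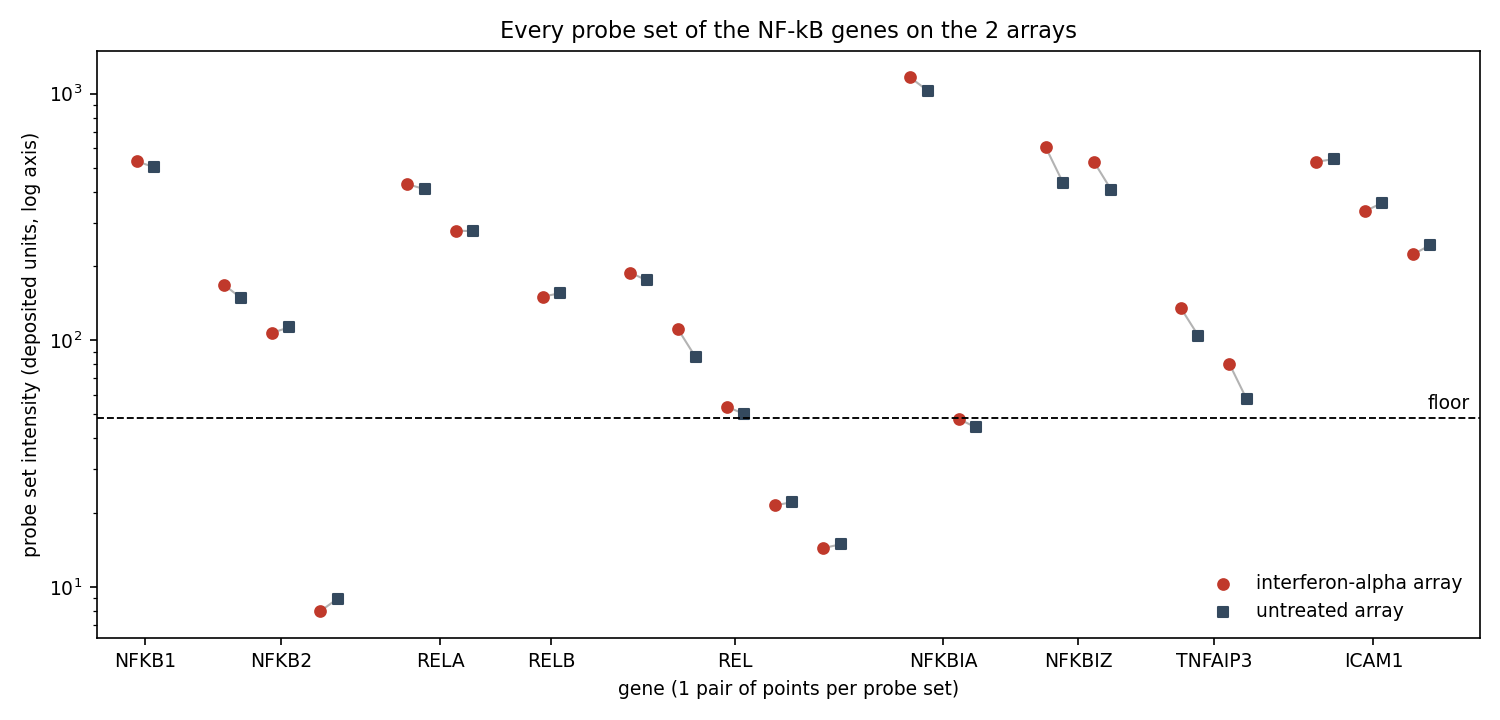
Intensity of each of the 21 probe sets (vertical log axis, deposited units) for the 9 genes named along the horizontal axis, with the interferon-alpha array as circles on the left of each pair and the untreated array as squares on the right, and a dashed line at the floor of 48.46. Both pairs of NFKBIZ and both of TNFAIP3 slope down from the interferon array to the untreated array, all 3 pairs of ICAM1 slope slightly the other way, and the pairs of NFKB1, RELA and RELB are nearly level.

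NFKB1 encodes p105, a precursor that is cut to the p50 subunit and that also acts as an IkB through its ankyrin repeats. Its single probe set, 209239_at, had 532 on the interferon array and 504 on the untreated array, a log2 ratio of 0.08. RELA encodes p65, the subunit that carries the transactivation domain of the common p50-p65 dimer. Its probe set 201783_s_at had 430 with interferon and 410 untreated (log2 0.07), and 209878_s_at had 278 with interferon and 277 untreated (log2 0.01). The 2 genes of the classical dimer were thus nearly level between the arrays, at percentile 63.0 of measured genes for NFKB1 and 60.5 for RELA.

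NFKB2 and RELB form the dimer of the alternative pathway, in which the p100 product of NFKB2 is processed to p52. For NFKB2 the probe sets disagreed in sign: 207535_s_at had 168 with interferon and 148 untreated (log2 0.18), whereas 209636_at had 107 with interferon and 113 untreated (log2 -0.07). The third probe set, 211524_at, was dim, at 7.97 with interferon and 8.96 untreated. The distance of 0.26 between its measured probe sets exceeds the median of 0.14 for genes in general, and no direction can be read for NFKB2. RELB, which is a known NF-kB target as well as a subunit, had 150 with interferon and 155 untreated on its only probe set, 205205_at (log2 -0.04).

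REL encodes c-Rel, a subunit best known from lymphocytes. Its representative probe set 235242_at had 188 with interferon and 175 untreated, a log2 ratio of 0.11. A second, 228812_at, had 111 with interferon and 85.4 untreated, or 1.29-fold (log2 0.37), and the third, 206036_s_at, had 53.8 with interferon and 50.3 untreated (log2 0.10), just above the floor. The other 2 probe sets of REL were dim, at 21.4 and 14.4 with interferon and at 22.04 and 14.9 untreated. REL therefore had 1 probe set beyond the central 95% of measured genes and 2 well within it, a range of 0.28 that was the widest among the members. The median log2 ratio of the 5 subunit genes was 0.08.

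The feedback genes and the target gene are set beside their promoters, to show where letters of kappaB sites lie in each. RefSeq promoter sequences of GRCh38.p14 are given 5′ to 3′ for the 250 bases before a listed transcription start, on the strand of the gene. Capitals mark each match, on either strand, to the kappaB consensus or to GGAAATTCC, the core of many kappaB sites. GGAAATTCC was added after the sequences were seen. For NFKBIZ the first of 2 listed starts is shown.
NFKBIZ promoter, chr3:101827740-101827989, strand +: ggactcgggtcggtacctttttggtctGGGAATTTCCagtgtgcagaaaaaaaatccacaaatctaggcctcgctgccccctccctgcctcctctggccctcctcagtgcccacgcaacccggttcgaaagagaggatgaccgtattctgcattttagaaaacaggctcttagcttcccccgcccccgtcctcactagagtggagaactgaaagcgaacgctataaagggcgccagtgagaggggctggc
TNFAIP3 promoter, chr6:137867009-137867258, strand +: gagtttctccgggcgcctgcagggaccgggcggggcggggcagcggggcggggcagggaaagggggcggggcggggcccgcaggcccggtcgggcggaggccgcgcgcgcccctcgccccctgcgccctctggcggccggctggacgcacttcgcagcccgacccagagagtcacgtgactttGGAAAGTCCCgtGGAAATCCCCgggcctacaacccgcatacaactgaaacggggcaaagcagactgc
NFKBIA promoter, chr14:35404750-35404999, strand -: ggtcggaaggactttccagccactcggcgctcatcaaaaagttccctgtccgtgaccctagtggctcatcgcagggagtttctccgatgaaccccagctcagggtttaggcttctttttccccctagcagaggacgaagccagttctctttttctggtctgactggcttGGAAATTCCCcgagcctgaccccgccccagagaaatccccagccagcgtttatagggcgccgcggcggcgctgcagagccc
ICAM1 promoter, chr19:10270870-10271119, strand +: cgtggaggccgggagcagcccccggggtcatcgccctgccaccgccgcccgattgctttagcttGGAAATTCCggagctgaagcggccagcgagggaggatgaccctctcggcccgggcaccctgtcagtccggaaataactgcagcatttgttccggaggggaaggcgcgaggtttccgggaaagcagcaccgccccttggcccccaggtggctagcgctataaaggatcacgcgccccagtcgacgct

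NFKBIZ encodes IkB-zeta, a nuclear member of the IkB family that NF-kB induces early and that is needed for a second set of target genes. Its probe set 223218_s_at had 608 with interferon and 436 untreated, or 1.39-fold (log2 0.48). The other, 223217_s_at, had 530 with interferon and 407 untreated, or 1.30-fold (log2 0.38). Both were brighter with interferon, and they differed from each other by 0.10. The ratio was at percentile 99.2 of measured genes, with 107 measured genes above it. When the genes were split into 10 equal groups by brightness, the group of NFKBIZ had a central 95% from -0.13 to 0.30, and NFKBIZ lay above it.

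TNFAIP3 encodes A20, a ubiquitin-editing enzyme that shuts off signalling from receptors to the IkB kinases. Its probe set 202644_s_at had 135 with interferon and 104 untreated, or 1.29-fold (log2 0.37), and 202643_s_at had 80.3 with interferon and 57.7 untreated, or 1.39-fold (log2 0.48). Both were again brighter with interferon, 0.11 apart. TNFAIP3 was at percentile 98.5 of measured genes but at percentile 97.4 within its own brightness group, where the central 95% ran from -0.35 to 0.37. It is therefore at the edge of the spread of genes of like brightness.

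NFKBIA encodes IkB-alpha, the main cytoplasmic inhibitor of the p50-p65 dimer and a classical early NF-kB target. Probe set 201502_s_at had 1164 with interferon and 1029 untreated, or 1.13-fold (log2 0.18). This was percentile 87.5 of measured genes and lay inside the central 95% of its brightness group, which ran from -0.08 to 0.27. The second probe set, 231699_at, was dim, at 47.999 with interferon and 44.3 untreated.

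ICAM1 encodes an adhesion molecule that leukocytes bind on inflamed endothelium and epithelium, and it is a textbook NF-kB target. Probe set 202637_s_at had 530 with interferon and 543 untreated (log2 -0.03), 202638_s_at had 333 with interferon and 361 untreated (log2 -0.11), and 215485_s_at had 223 with interferon and 244 untreated (log2 -0.13). All 3 were slightly dimmer with interferon. Among genes with at least 2 measured probe sets, 14.7% had every one below 0. The representative ratio was at percentile 30.1 of measured genes and 14.0 of its brightness group, within that group's central 95%.

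Of the 9 members, 2 lay above the central 95% of measured genes, NFKBIZ and TNFAIP3, and 0 lay below it. The background share on either side is 2.5%, by construction. In 6 members more than 1 probe set was measured, and in NFKBIZ and TNFAIP3 every one was above 0.30. Over all genes with more than 1 measured probe set that share was 0.744%. The ratio was above 0 in 7 of the 9 members, against 59.7% of measured genes. NFKB2, whose probe sets disagreed in sign, is among the 7. The 59.7% covers genes of every brightness, and the median ratio ran from -0.04 in the dimmest of the 10 brightness groups to 0.14 in the brightest. The median log2 ratio of the members was 0.11, and that of all genes counted was 0.03. Of the 17 measured probe sets, 12 were above 0 and 5 were below it. Those above 0.30 numbered 5, which were both of NFKBIZ, both of TNFAIP3 and 228812_at of REL, against 3.24% of all measured probe sets. Probe sets of 1 gene are not independent units, so this count largely repeats NFKBIZ and TNFAIP3.

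**Figure D2:**
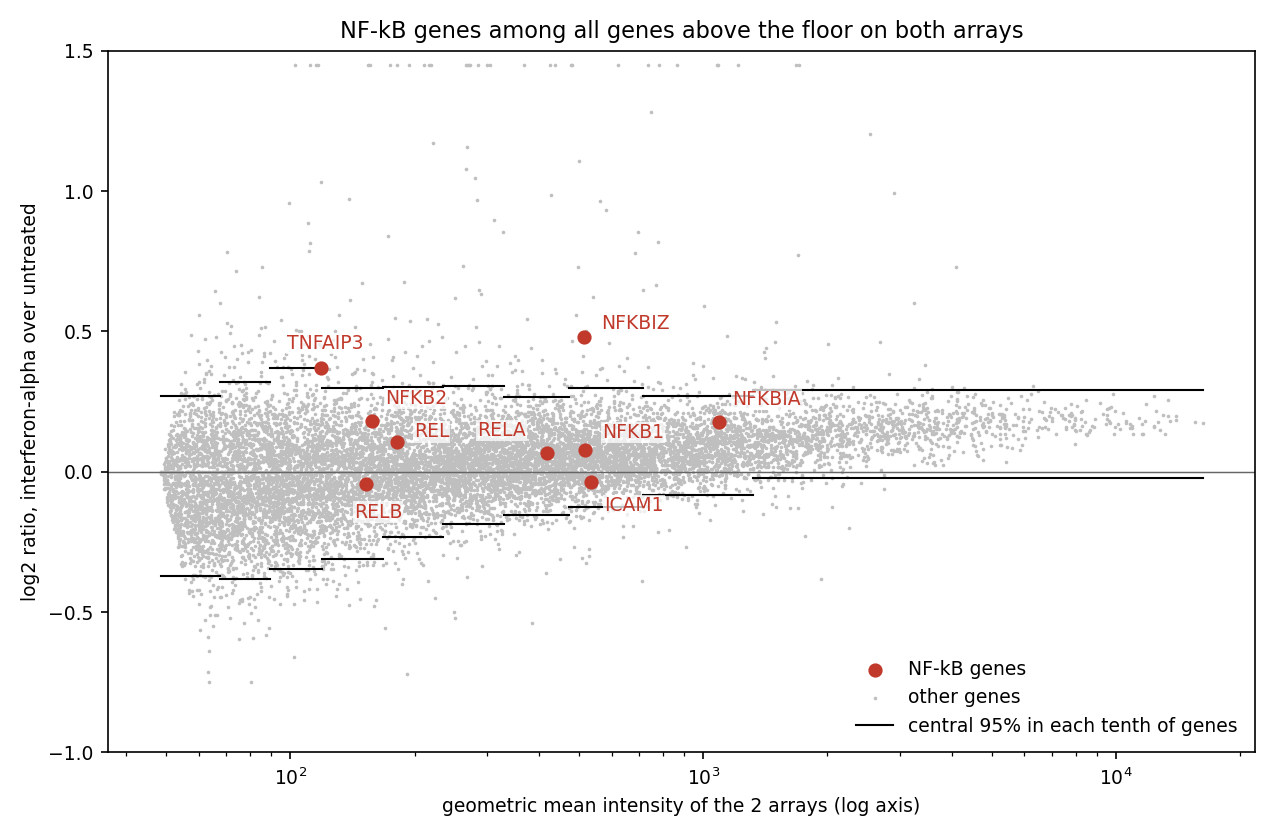
Log2 ratio of interferon-alpha over untreated (vertical axis) against the geometric mean intensity of the 2 arrays (horizontal log axis) for the 12742 measured genes, in grey, with the 9 NF-kB genes in red and lines at the central 95% in each of 10 brightness groups. Ratios beyond the top of the axis are drawn at its edge. NFKBIZ stands above the lines at 0.48, TNFAIP3 lies on the line at 0.37, and the other 7 members lie inside.

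The scaling between the arrays sets the zero of all these ratios. Probe sets for the hybridisation controls, bacterial and phage transcripts added to the sample, were brighter with interferon in 18 of 18 cases, by a median log2 ratio of 0.43, which lies between the ratios of TNFAIP3 and NFKBIZ. Their part in the results was not tested. Centring on these controls gave a median of -0.39 over measured genes, against 0.04 with the deposited scaling, and 59 genes at least 1.5-fold higher and 1201 lower, against 100 higher and 11 lower. NFKBIZ then had a log2 ratio of 0.053 and TNFAIP3 one of -0.056. Both were above the central 95% of measured genes, whose upper end was then -0.12. The median of the members minus that of measured genes was 0.07 with either scaling. Centring subtracts 1 constant from every log2 ratio. Apart from genes near the floor, these comparisons could therefore hardly change and are no separate support. In the 10 other alternatives NFKBIZ had a log2 ratio between 0.41 and 0.50 and TNFAIP3 one between 0.33 and 0.42, wherever they had a probe set.

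**Figure D3:**
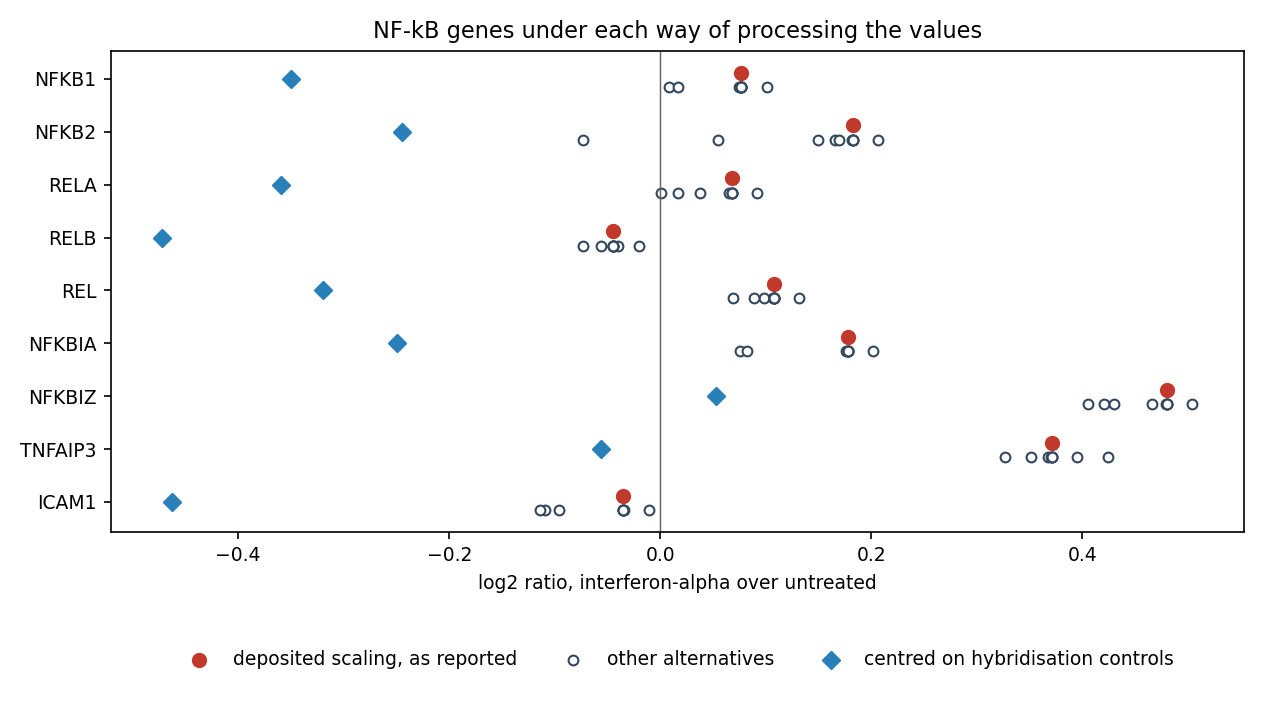
Log2 ratio of interferon-alpha over untreated (horizontal axis) for each of the 9 genes (rows) with the deposited scaling (red), centred on the hybridisation controls (diamonds) and under the other alternatives (open circles). Centring on the controls moves every gene to the left by the same amount and leaves only NFKBIZ above 0, at 0.053. NFKBIZ and TNFAIP3 are the 2 rightmost genes among the red points and so also among the diamonds.

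Searched on both strands of the 250 bases before each listed start, the kappaB consensus matched at 9 of the 14 starts listed for the members, against 9.96% of 35114 promoters of the same length. These starts belonged to 7 of the 9 members with a promoter entry, NFKB1, NFKB2, REL, NFKBIA, NFKBIZ, TNFAIP3 and BIRC3. The members without a match were RELA and ICAM1, and RELB had no entry. The members were chosen by name as NF-kB genes, known targets among them. Setting their kappaB share beside that of all promoters is therefore no test. TNFAIP3 had a pair of matches, starting 67 and 55 bases before the start, and NFKBIA had 1 starting 81 bases before it. NFKBIZ had 1 starting 223 bases before the start shown. The second listed start of NFKBIZ, not shown, also had 1, starting 239 bases before it. GGAAATTCC matched at 5 of the 14 starts, 1 each of NFKB1, REL, NFKBIA, NFKBIZ and ICAM1, against 0.413% of all promoters. This sequence was added after the members' promoters were seen, so its share there is no independent support. At NFKB1, REL, NFKBIA and NFKBIZ GGAAATTCC overlaps the match to the kappaB consensus. In ICAM1 it starts 186 bases before the start, and this gene had no match to the longer consensus. The interferon-stimulated response element, searched as TTTC followed after any 2 bases by TTTC, matched at RELA among the members and at 3.02% of all promoters. The gamma-activated site, searched as TTCNNNGAA, matched at RELA and ICAM1 and at 6.57% of all promoters. These matches are letters in a window and show no binding.

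Other genes of the pathway, 89 in 4 lists, contained 62 that were counted. The lists were chosen with earlier results of these data known. Setting their shares beside those of all genes is therefore no test. Past 1.5-fold were MYD88, RBCK1 and IRF1, that is 3 genes (4.84%) on the higher side and 0 on the lower. Among all genes counted the shares were 0.754% higher and 0.0829% lower. The median log2 ratio of the 62 was 0.06, against 0.03 for all genes counted. Of the 58 measured ones, 5 (8.62%) lay above the central 95% of measured genes and 1 below it. The background share on either side is 2.5%, by construction.

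Among 17 counted receptors and adaptors, MYD88 stood apart from the others. MYD88, the adaptor of Toll-like and interleukin-1 receptors, had 1162 with interferon and 478 untreated on its probe set, or 2.43-fold (log2 1.28). It was the only gene of this list past 1.5-fold, and the next was XIAP, a caspase inhibitor, at a log2 ratio of 0.27. The lowest were CD40 (-0.08), a receptor of the alternative pathway, and IRAK2 (-0.01), a kinase that works with MYD88. The list's median was 0.06.

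Among 13 counted genes for the IkB kinases, their activating kinases and the linear ubiquitin ligase complex, RBCK1 was the one past 1.5-fold. RBCK1, which encodes the HOIL-1 subunit of that complex, had 971 with interferon and 612 untreated, or 1.59-fold (log2 0.67), and its 3 counted probe sets ran from 0.18 to 0.67. The other subunits had log2 ratios of -0.17 for RNF31, the catalytic one, and -0.13 for SHARPIN, named to complete the complex after its value was seen. CHUK, the kinase IKK-alpha, had 331 with interferon and 272 untreated (log2 0.29), IKBKE had -0.16, and the median of the list was 0.06.

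The other inhibitors all lay inside the central 95% of measured genes where measured. Among 11 counted members of the IkB family and ubiquitin-dependent brakes, the highest log2 ratios were those of OTULIN (0.24), which removes linear ubiquitin chains, and TAX1BP1 (0.23), a partner of A20. The lowest were N4BP1 (-0.20) and NFKBID (-0.16), the gene of the nuclear protein IkB-NS. The list's median was -0.01. Among the feedback genes counted, NFKBIZ and TNFAIP3 thus had the highest ratios, and the difference from these others was not tested. Of the 15 genes in this list, 2 had no probe set and 2 were dim, and BIRC3 also had no probe set.

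Of 37 further NF-kB target genes that had a probe set, 14 were dim, among them, as examples picked afterwards, IL6, TNF, VCAM1 and SELE. Of the 23 counted, IRF1 was the one shown to be past 1.5-fold, with 150 on the interferon array and 81.1 on the untreated array, or 1.85-fold (log2 0.88, and 0.53 on its other counted probe set). IRF1 is a transcription factor that interferons also induce through STAT sites. CXCL10, a chemokine gene named after its values were seen, had 57.8 with interferon and 24.4, under the floor, untreated, so its 1.19-fold is a lower bound and does not place it below 1.5-fold. The chemokine gene CXCL1 had 104 with interferon and 72.5 untreated, or 1.43-fold (log2 0.51). CCL20, another chemokine gene, named because its ratio was seen to be high, had 3152 with interferon and 2286 untreated, or 1.38-fold (log2 0.46). IL1B, at 49.0 with interferon and 66.1 untreated, had the lowest ratio (log2 -0.43) and was close to the floor, and CCL5 followed at -0.15. The median of this list was 0.09.

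**Figure D4:**
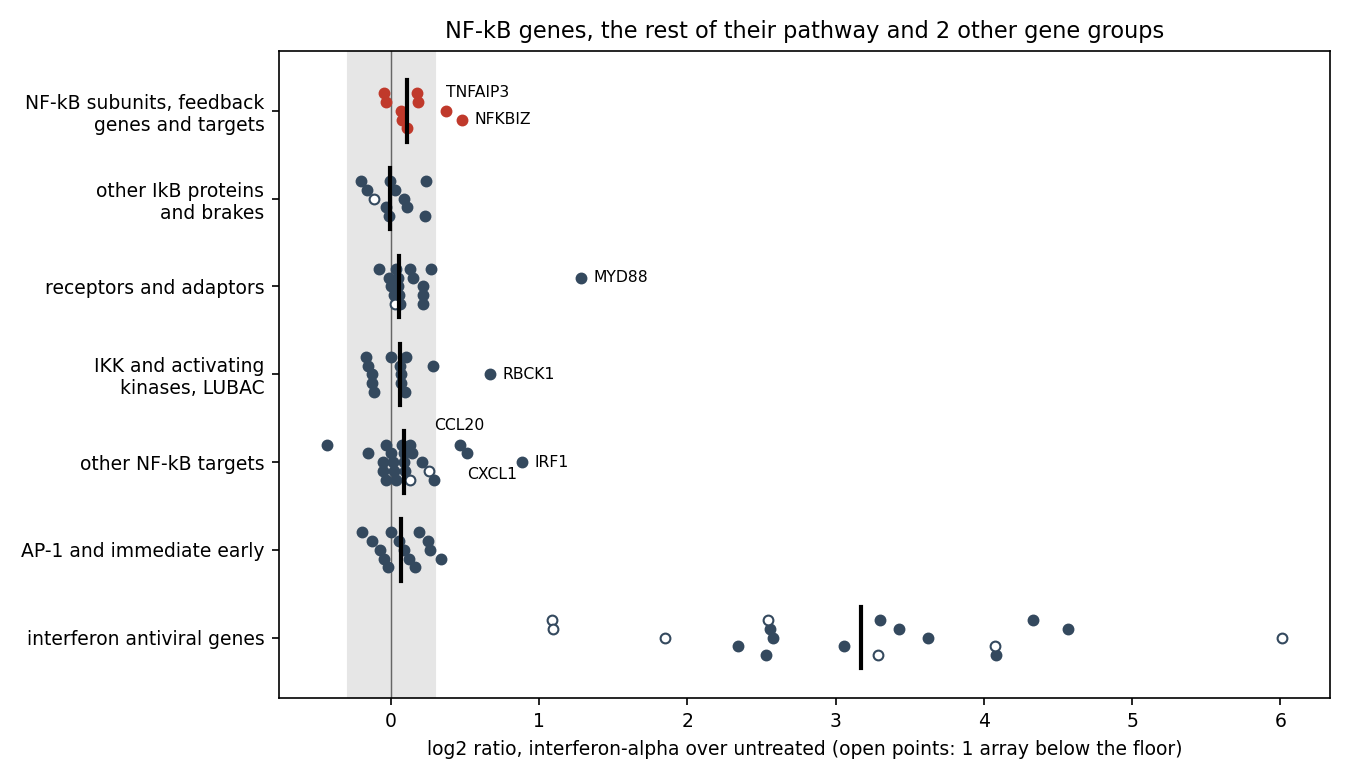
Log2 ratio of interferon-alpha over untreated (horizontal axis) for each counted gene of 7 gene lists (rows), with black bars at the list medians, a grey band at the central 95% of measured genes and open points where 1 array was below the floor, so that the ratio is a bound. NFKBIZ, TNFAIP3, MYD88, RBCK1, IRF1, CXCL1, CCL20 and, unlabelled in the AP-1 row, EGR1 stand to the right of the band, and the interferon antiviral genes all lie beyond a log2 ratio of 1.

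The size of the NF-kB gene differences was small beside that of the interferon response on the same arrays. In the comparison list of antiviral genes, 18 of the 18 with a probe set were past 2-fold on the higher side, against 0.43% of all genes counted. Their median log2 ratio was 3.17, in which bounds stand for genes below the floor untreated. The list was chosen as interferon genes, with earlier results of these data known, so its share gives a scale and is no test. Among 14 counted AP-1 and immediate early genes, which other signals induce with NF-kB targets, the number past 1.5-fold was 0. All genes counted had 0.754% past it on the higher side and 0.0829% on the lower. In the AP-1 list EGR1 had the highest log2 ratio at 0.34, followed by IER2 at 0.26. EGR1 was the 1 gene above the central 95% of measured genes, where the background share is 2.5%. FOSL1 (-0.20) and BATF (-0.13) had the lowest ratios. Median log2 ratios were 0.11 for the NF-kB members and 0.07 for the AP-1 list.

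The cell identity and the other cell types that could carry these genes were checked with marker lists. All 9 hepatocyte and hepatoma markers with a probe set, among them ALB, APOB and AFP, had intensities of at least 3222.5 with interferon and at least 2999.9 untreated. Of 7 leukocyte markers 4 were dim, including PTPRC at 17.0 with interferon and 19.2 untreated. The 3 measured were CD79A (89.1 with interferon, 105 untreated), CD14 (76.5 and 91.1) and CSF1R (101 and 99.1). The summed intensity of the list was 337 with interferon and 366 untreated. Of 6 endothelial markers 4 were dim, including CDH5 and KDR. PECAM1 had 152 with interferon and 158 untreated, and VWF had 49.99 with interferon and 67.1 untreated, a log2 ratio of -0.42 below the central 95% of measured genes. The endothelial sums were 311 with interferon and 347 untreated. Of 7 stellate cell and fibroblast markers 2 were dim and 5 were measured. The brightest was COL1A2, at 560 with interferon and 544 untreated. The sums of this list were 1074 with interferon and 1049 untreated. No marker had an intensity of 0. In RNA from a whole culture, fewer cells expressing a gene and less RNA per cell cannot be told apart.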

How the data were processed

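Total RNA from 1 interferon-treated and 1 untreated Huh-7 culture was hybridised as biotinylated cRNA, 1 array each. The deposited values are linear intensities, 1 per probe set and array, which the authors made with GCOS, per the submitters' processing notes. Not given in the sources used here are its version, the background correction, the probe summary and the scaling. Intensities ran from 5.74 to 17215.6 with interferon and from 5.63 to 15261.5 untreated.

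Gene names came from the platform annotation, with symbols updated through the gene ID. Of 54613 probe sets other than controls, 41091 had 1 gene, 1801 several and 11721 none named. Values were floored at the 50th percentile, log2 transformed and subtracted, interferon minus untreated. A gene counted if above the floor on at least 1 array. Python 3.11.15, pandas 2.3.3 and statsmodels 0.14.6 were used, and the ratios were checked on simulated data. Named genes are all members, plus from each other list the genes at least 1.5-fold different and the 2 highest and 2 lowest ratios among measured genes; exceptions are said where they occur, and of the interferon and marker lists only examples are given. The members, lists and rules were chosen with earlier results of these data known. Alternatives were 2 pseudocounts, 2 floors, 4 scalings and 3 ways to choose probe sets.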

Additional observations from a re-analysis of the deposited data

How the results depend on the processing

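Across 11 alternatives, 0 members were at least 1.5-fold higher or lower in any. Centring on the hybridisation controls lowered the number of members above 0 to 1 and the members' median log2 ratio to -0.32, and TNFAIP3 changed sign to -0.056, a constant shift that follows from the centring. Leaving out probe sets whose names end in _x_at or _s_at, which can match several transcripts, removed every probe set of NFKBIZ, TNFAIP3, RELA and ICAM1 and the only one of NFKBIA above the floor. It left 4 members, 2 of them above 0 and 0 above the central 95% of measured genes, and NFKB2 then had -0.07. In the other 9 alternatives 7 members were above 0, the members' median stayed between 0.07 and 0.13, and NFKBIZ and TNFAIP3 were the 2 members above the central 95% of measured genes. This last count was added after the data were seen. With the 2 other floors, and with the probe set brightest on the untreated array, the ratio of every member was unchanged. Median scaling shifts every log2 ratio by 1 constant. These alternatives could therefore hardly change the count and are no separate support. No paired analysis was possible because there is 1 array per condition.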

Other observations

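Some deposited values lie on a fixed grid. On the interferon array 3.49% of all values and on the untreated array 3.53% share the same remainder after division by 0.5, to within 2e-06, so that any 2 of them differ by a multiple of 0.5. Among the 21 probe sets of the members, the grid holds both values of 3. They differ, interferon minus untreated, by 20 units for 207535_s_at of NFKB2, by 13.5 units for 235242_at of REL and by -13 units for 202637_s_at of ICAM1. These are the representative probe sets of their genes. For NFKB2 and REL another measured probe set of the gene, off the grid, gave a log2 ratio at least 0.25 away, although the remaining one of REL lay close. For ICAM1 the other probe sets, off the grid, lay close to the one on it, within a range of 0.09. Other named genes were not checked to this precision. To the digits kept, MYD88 (1162.32 with interferon, 478.316 untreated) and SHARPIN (181.816 with interferon, 198.816 untreated) had the same remainder as the grid on both arrays. On the whole array 2361 probe sets (4.32%) had the same value on both arrays, among them 0 of the 21 of the members. How the grid and the ties arose is not given in the sources used here, and the effect on the ratios was not tested.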
